A study of Mus musculus with 18 samples.

Results

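Matrix metalloproteinases (MMPs) and tissue inhibitors of metalloproteinases (TIMPs) were followed through RNA of mouse heart. The group held 10 of the 34150 Ensembl genes in the files, where 23 genes are named Mmp or Timp. It was chosen with earlier results of these data known. Its members were the MMP genes Mmp2, Mmp3, Mmp9, Mmp14, Mmp15 and Mmp23 and the inhibitor genes Timp1, Timp2, Timp3 and Timp4. All 10 were present and had a mean level of 0.5 FPKM or more across the libraries, the condition under which 13710 genes were tested. FPKM is the number of fragments scaled to exon length and to the reads of the library, so it allows levels to be compared between genes.

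Heart tissue was sequenced as total RNA after removal of ribosomal RNA, in 18 libraries: 6 labelled control, 6 labelled MI and 6 labelled HXP. By its title the series concerns acute myocardial infarction (MI) in mice and treatment with HXP. MI is the death of heart muscle after loss of its blood supply. The sources used here give no meaning of the letters HXP, no dose, no strain, sex or age, no times of infarction, treatment or collection, no region of the heart, and no statement that every HXP mouse had an infarct or what the control mice underwent. The design text gives the number of mice per group, and the p-values below measure only the spread between these libraries.

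MMPs are zinc-dependent endopeptidases that are made as inactive precursors and cut collagens, fibronectin, elastin and other proteins of the extracellular matrix. TIMPs are secreted proteins that sit in the active site of an MMP and block it, and TIMP2 together with the membrane-bound MMP14 also takes part in the activation of the MMP2 precursor. In the heart, fibroblasts, macrophages and muscle cells make members of both families, and the balance of the proteases and their inhibitors is studied as a determinant of scar formation and wall thinning after an infarct. RNA levels do not show how much protease is active.

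Promoter sequences are shown for 4 members: Timp1, which had the highest fold change of the 10, Mmp14 and Mmp3, which encode a membrane-bound and a secreted protease, and Timp4, which did not pass the test in any comparison. Each is the 250 bases before the gene start in RefSeq (GRCm38.p6), written 5′ to 3′ along the gene's strand, at chrX:20869916-20870165 (plus strand) for Timp1, chr14:54431348-54431597 (plus strand) for Mmp14, chr9:7445572-7445821 (plus strand) for Mmp3 and chr6:115252206-115252455 (minus strand) for Timp4. Capitals mark exact matches, on either strand, to the AP-1 motif TGANTCA, the GC box GGGCGG, the CCAAT box or the TATA box TATAAA.
Timp1: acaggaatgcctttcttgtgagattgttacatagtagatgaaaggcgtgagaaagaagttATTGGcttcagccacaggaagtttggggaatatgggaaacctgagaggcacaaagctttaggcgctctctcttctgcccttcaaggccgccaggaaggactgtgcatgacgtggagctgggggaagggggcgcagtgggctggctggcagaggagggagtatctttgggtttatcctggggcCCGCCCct
Mmp14: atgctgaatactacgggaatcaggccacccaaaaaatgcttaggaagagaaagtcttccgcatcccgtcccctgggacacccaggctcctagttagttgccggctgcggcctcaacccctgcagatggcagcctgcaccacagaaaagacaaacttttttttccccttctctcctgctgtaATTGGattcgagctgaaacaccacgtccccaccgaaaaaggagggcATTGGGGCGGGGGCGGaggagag
Mmp3: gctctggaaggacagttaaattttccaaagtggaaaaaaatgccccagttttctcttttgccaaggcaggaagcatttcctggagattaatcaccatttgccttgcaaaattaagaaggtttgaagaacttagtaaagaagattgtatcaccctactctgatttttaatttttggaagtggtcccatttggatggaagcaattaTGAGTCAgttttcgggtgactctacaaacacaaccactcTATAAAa
Timp4: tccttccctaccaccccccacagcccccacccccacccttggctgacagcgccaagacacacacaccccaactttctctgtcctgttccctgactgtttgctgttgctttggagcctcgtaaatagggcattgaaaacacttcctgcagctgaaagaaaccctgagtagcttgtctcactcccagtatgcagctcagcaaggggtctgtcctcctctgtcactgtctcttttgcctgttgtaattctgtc
The table of promoters held 8 of the 10 members, without Mmp2 and Mmp9. The AP-1 motif was found in the window of Mmp3 alone among these 8, starting 46 bases before the gene start, and in 6.75% of 32851 windows of the same length. Mmp3 was also the single member of the 8 with TATAAA, starting 7 bases before the gene start, a motif in 12.4% of windows. Mmp14 held 2 GC boxes and 2 CCAAT boxes, Timp1 held 1 of each, and these motifs were present in 32.7% and 33.8% of windows. A CCAAT box and a GC box next to each other in Mmp14 share their bordering letters. The windows of Timp4 and Mmp23 held none of the 4 motifs, which says only that these letters are not there.

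Depth was even, with 75.8 to 81.1 M reads per library recovered from the steps of the values. Reads of mitochondrial genes, nuclear copies included, made up 36.4% to 42.6% of control libraries, 20.4% to 33.2% of MI libraries and 20.5% to 45.5% of HXP libraries, and every FPKM value is relative to a total that holds these reads. Cardiomyocyte markers defined the tissue in all libraries (summed level of 8 genes 4243 to 8806 FPKM). MI 5 stood apart by RNA of lung epithelial genes, with a summed level of 1181 FPKM for 8 markers where no other MI library exceeded 1.95, and Sftpc, which encodes a surfactant protein, at 970.3 FPKM. MI 4 had the highest levels of fast skeletal myosin genes, with Myh1 at 11.9 FPKM where no other MI library exceeded 0.292. HXP 5 was raised in the same genes among the HXP libraries, with Myh1 at 2.10 FPKM where no other exceeded 0.152 and Mylpf, a fast myosin light chain gene, at 3.18. Results without these libraries are given below.

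Level order changed between the groups. In control the inhibitor genes Timp3 (26.9 ± 3.62 FPKM) and Timp2 (21.05 ± 1.83) led, followed by Mmp15 (18.4 ± 2.21), Mmp2 (14.7 ± 3.23) and Timp4 (5.15 ± 2.59; SD, n = 6 each). Mmp14, Mmp23, Mmp3 and Timp1 formed a lower group with means from 1.42 to 1.83 FPKM, whose neighbours overlapped. Mmp9 was lowest at 0.346 ± 0.168 FPKM (SD, n = 6). Between neighbours in this order, only Timp4 and Mmp14, and Timp1 and Mmp9, had control ranges that did not overlap. In MI the order was Mmp2, Timp2, Timp3, Timp1, Mmp15, Mmp14, Mmp23, Mmp3, Timp4 and Mmp9, and each neighbouring pair overlapped in range. HXP libraries gave the same order of means except that Mmp23 stood before Mmp14, again with overlap between all neighbours. Mmp2 and Timp1 thus stood above Mmp15 in mean level in MI and HXP and below it in control.

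**Figure D1:**
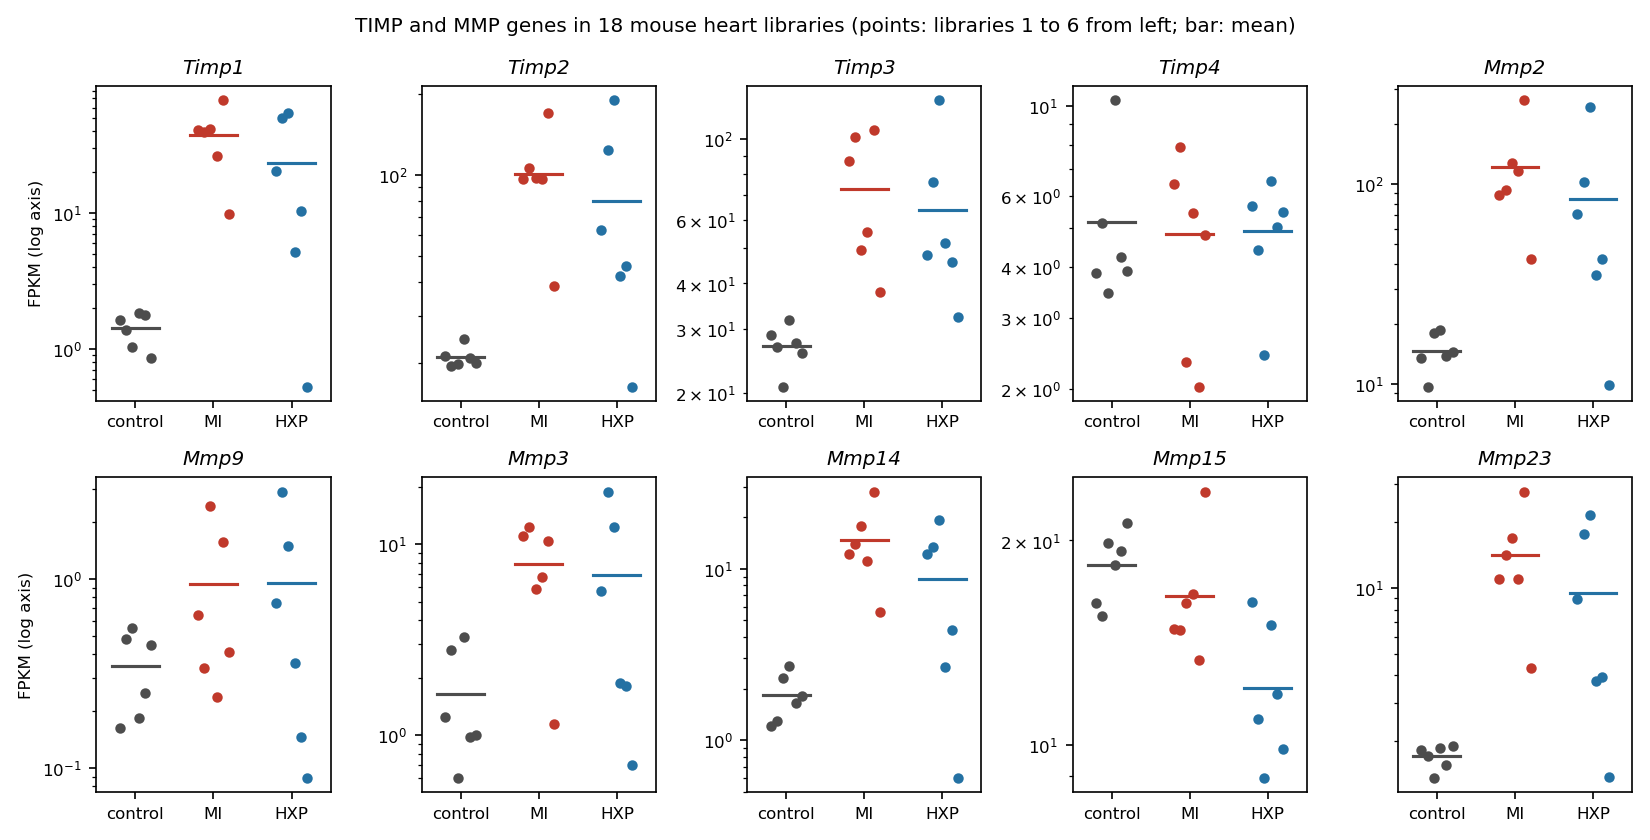
FPKM of each member in the 18 libraries on a log axis, with 1 point per library (libraries 1 to 6 from left to right in each group) and a bar at the group mean. Timp1, Timp2, Timp3, Mmp2, Mmp14 and Mmp23 lay higher in all 6 MI libraries than in any control, and the HXP libraries of these genes except Timp3 were spread from the control range or below it to the MI range.

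Whether these genes differ in the infarcted heart was asked by comparing MI with control. Of the 10 members, 7 rose and 0 fell: the protease genes Mmp2, Mmp3, Mmp14 and Mmp23 and the inhibitor genes Timp1, Timp2 and Timp3 (limma adjusted p from 0.0127 to 0.0287). Over all genes tested, 40.1% were called higher and 3.21% lower, and the median gene had a log2 fold change of 0.27. The median log2 fold change was 1.98 over the 6 MMP genes and 1.71 over the 4 TIMP genes. Fold changes here are differences of log2(FPKM + 1), which understate the change of genes near or below 1 FPKM. In such bulk tissue, fewer cells of a type and less RNA per cell cannot be told apart.

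Among the gelatinases, Mmp2 encodes MMP2, which degrades denatured collagen and basement membrane collagen (ENSMUSG00000031740, GRCm38 chromosome 8, 92827291 to 92853420, plus strand). Control libraries ran from 9.68 to 18.5 FPKM with a median of 14.2, MI libraries from 42.2 to 263 with a median of 105, and HXP libraries from 9.92 to 244 with a median of 56.8. All 6 MI libraries lay above every control, with MI 6 lowest and MI 5 highest. In MI the log2 fold change reached 2.79 (SE 0.55, 95% interval 1.64 to 3.94, limma adjusted p = 0.0136). HXP 6, at 9.92 FPKM, lay within the control range, and the other 5 HXP libraries lay above it.

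Mmp9, the second gelatinase gene and one that neutrophils and macrophages are known to express, was near the limit of the filter (ENSMUSG00000017737, chromosome 2, 164940780 to 164955850, plus strand). Its level ran from 0.162 to 0.551 FPKM in control, from 0.238 to 2.43 in MI and from 0.0883 to 2.90 in HXP, with medians of 0.349, 0.527 and 0.551 FPKM. These values rest on 24 to 796 recovered reads per library. The groups overlapped throughout, and the highest libraries were MI 3, MI 5, HXP 2 and HXP 3. A log2 fold change of 0.43 in MI (95% interval -0.19 to 1.05) did not pass (limma adjusted p = 0.233). The 11 neutrophil markers summed to 0.748 to 26.6 FPKM in control, from 2.86 to 16.4 in MI and from 1.35 to 17.9 in HXP, and Ly6g, which defines the type, did not exceed 0.122 FPKM in any library.

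Mmp3 encodes stromelysin 1, a secreted protease that cuts many matrix proteins and activates other MMP precursors (ENSMUSG00000043613, chromosome 9, 7445822 to 7455975, plus strand). Control libraries ran from 0.596 to 3.27 FPKM with a median of 1.12 and MI libraries from 1.15 to 12.3 with a median of 8.58. In MI, 5 of 6 libraries lay above every control, and MI 6, at 1.15 FPKM, lay among the controls. MI thus exceeded control by a log2 fold change of 1.64 (SE 0.56, 95% interval 0.47 to 2.81, limma adjusted p = 0.0287). This call was the least firm of the 7: without 1 of control 1, control 3, control 5, MI 1, MI 2 or MI 5 it did not pass, with limma adjusted p up to 0.066, nor after quantile normalization (limma adjusted p = 0.051).

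Of the membrane-type members, Mmp14 rose and Mmp15 did not pass. Mmp14, which encodes the membrane-bound MT1-MMP (ENSMUSG00000000957, chromosome 14, 54431612 to 54445364, plus strand), ran from 1.21 to 2.71 FPKM in control, with a median of 1.73, and from 5.63 to 28.1 in MI, with a median of 13.1. The lowest MI library thus lay above the highest control. Its log2 fold change was 2.37 (SE 0.49, 95% interval 1.33 to 3.40, limma adjusted p = 0.0139). Mmp15, which encodes MT2-MMP (ENSMUSG00000031790, chromosome 8, 95352268 to 95375080, plus strand), ran from 15.5 to 21.3 FPKM in control, with a median of 18.9, and from 13.4 to 23.6 in MI, with a median of 15.5. These ranges overlapped, and MI 6 was the highest library for Mmp15 while it was the lowest MI library for Mmp2, Mmp3, Mmp14 and Mmp23. For Mmp15 in MI the log2 fold change was -0.16 (95% interval -0.46 to 0.15, limma adjusted p = 0.372), and -0.51 after median-ratio scaling (limma adjusted p = 0.0479).

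Mmp23, which encodes a protease anchored by its amino-terminal end and lacking the hemopexin domain of most MMPs (ENSMUSG00000029061, chromosome 4, 155650655 to 155653384, minus strand), had an even control level of 1.36 to 1.90 FPKM with a median of 1.78. MI libraries ran from 4.34 to 27.6 FPKM with a median of 12.6, all above every control. This gave a log2 fold change of 2.32 (SE 0.46, 95% interval 1.35 to 3.30, limma adjusted p = 0.0137).

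Among the inhibitors, Timp1 had the highest fold change of all 10 genes (ENSMUSG00000001131, chromosome X, 20870166 to 20874735, plus strand). TIMP1 is a secreted inhibitor that binds MMP9 well and MMP14 poorly. Control libraries ran from 0.851 to 1.85 FPKM with a median of 1.51 and MI libraries from 9.84 to 67.8 with a median of 40.3. The lowest MI library, MI 6, lay above every control, and 5 of 6 MI libraries exceeded 26 FPKM. Timp1 rose by 3.82 on the log2 scale (SE 0.68, 95% interval 2.40 to 5.24, limma adjusted p = 0.0127), the 24th highest of the 13710 genes. Timp1 lies inside Syn1 on the opposite strand, with 0 shared exon bases.

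Timp2 (ENSMUSG00000017466, chromosome 11, 118301069 to 118355740, minus strand) encodes the inhibitor that also bridges MMP14 and the MMP2 precursor. It stood at 19.6 to 24.5 FPKM in control, with a median of 20.5, and at 38.8 to 170 in MI, with a median of 97.2. Groups did not overlap, and 4 MI libraries lay between 96.9 and 106 FPKM. Timp2 rose by 2.10 on the log2 scale (SE 0.43, 95% interval 1.18 to 3.01, limma adjusted p = 0.0139).

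Timp3 (ENSMUSG00000020044, chromosome 10, 86300372 to 86349506, plus strand) encodes the TIMP that binds to the matrix and also inhibits the shedding protease ADAM17. Control libraries ran from 20.8 to 31.7 FPKM with a median of 27.1 and MI libraries from 38.0 to 106 with a median of 71.3. All MI libraries lay above all controls, with a log2 fold change of 1.32 (SE 0.29, 95% interval 0.71 to 1.93, limma adjusted p = 0.0139). Its exons share 1733 bases with Syn3 on the opposite strand, and reads from both cannot be told apart without strand. Syn3 was listed at a mean of 0.0427 FPKM in control and 0.0842 in MI.

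Timp4, the inhibitor gene with the narrowest known expression and one that the heart expresses, did not pass (ENSMUSG00000030317, chromosome 6, 115241892 to 115252205, minus strand). Control libraries ran from 3.45 to 10.3 FPKM with a median of 4.07, MI libraries from 2.03 to 7.92 with a median of 5.11, and HXP libraries from 2.43 to 6.52 with a median of 5.25. The 3 ranges overlapped, and control 4 was the highest library. In MI the log2 fold change was -0.11 (95% interval -0.70 to 0.48, limma adjusted p = 0.762). MI 5 and HXP 3, the libraries with the highest Timp1 of their groups, had the lowest Timp4 of theirs, at 2.03 and 2.43 FPKM. Timp4 exons share 90 bases with Syn2 on the opposite strand, which was listed at 0.247 FPKM in control and 0.494 in MI.

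**Figure D2:**
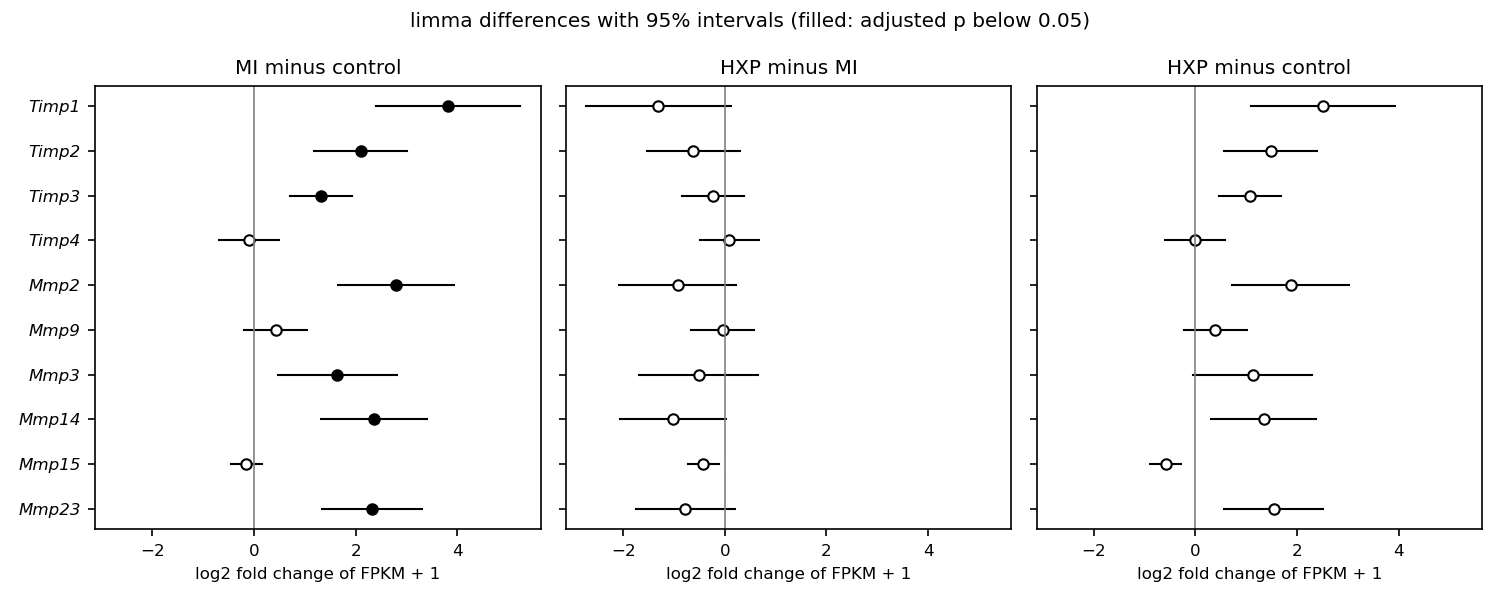
Fitted differences of log2(FPKM + 1) for the 10 members in the 3 comparisons, with 95% intervals from limma and filled points where the adjusted p lay below 0.05. In MI minus control 7 points are filled and lie right of 0, while in HXP minus MI and HXP minus control none is filled.

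Groups that did not overlap were found for 6 of the 10 members in MI against control: Mmp2, Mmp14, Mmp23, Timp1, Timp2 and Timp3. Over all genes, 27.9% had every MI library above every control and 1.39% every MI library below, a pattern that 0 members had. Calls other than that of Mmp3 held when any single library was left out, with limma adjusted p up to 0.042 without MI 5. Without MI 5, the library with lung RNA, the log2 fold changes were 3.62 for Timp1, 2.53 for Mmp2 and 1.19 for Timp3. Without MI 4 and MI 5 together, 0 of the 10 members and 0 of all genes passed in limma, with 7 members at an unadjusted p below 0.05 and 5998 genes over the whole table. The log2 fold changes were then 3.64 for Timp1, 2.43 for Mmp2 and 1.23 for Timp3, and limma adjusted p was 0.0555 for 6 members and 0.0946 for Mmp3.

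The library numbers in the file headers fall into 3 runs. Within the largest, with 3 controls, 5 MI and 2 HXP libraries, Mmp2 (2.31) and Timp1 (3.73) rose at a limma adjusted p of 0.0417. Over all genes 0.576% were called in this run, against 43.3% with all libraries. Log2 fold changes there were 1.93 for Mmp14, 2.11 for Mmp23, 1.90 for Timp2, 1.24 for Timp3 and 1.58 for Mmp3, with limma adjusted p from 0.0512 to 0.154. In the remaining runs MI and control libraries were too few for a fit. With the run as a term in the fit, 6 members passed, beside 30.8% of all genes, and Mmp3 did not (limma adjusted p = 0.0517).

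The comparison of HXP with MI asks whether the level of these genes differs between the HXP and the MI libraries. None of the 10 members passed, and over all genes 0% were called (0 of 13710). At an unadjusted p below 0.05 limma had 1 member, Mmp15, beside 13.8% of all genes, and voom on the recovered reads called 0 members at an adjusted p below 0.05 and had 2 at an unadjusted p below 0.05. Log2 fold changes were below 0 for 9 of 10 members, with a median of -0.65 over the MMP genes and -0.43 over the TIMP genes, beside -0.12 over all genes. Group and run overlapped here: HXP 1, HXP 3, HXP 4 and HXP 6 fell in a run with no MI library. MI 5 fell in a run with no HXP library. With the run as a term in the fit 0 members passed, and Timp1 had -0.82 and Mmp9 0.20. Treatment and run cannot be fully told apart.

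Spread among the HXP libraries was wide. Timp1 stood at 55.0 FPKM in HXP 3, 49.99 in HXP 2, 20.3 in HXP 1, 10.3 in HXP 5, 5.16 in HXP 4 and 0.528 in HXP 6. Thus 4 HXP libraries lay within the MI range of 9.84 to 67.8 FPKM, HXP 4 lay between the MI and control ranges and HXP 6 below every control. The log2 fold change of Timp1 against MI was -1.31 (95% interval -2.73 to 0.12, limma adjusted p = 0.385). Mmp2 followed the same order of libraries, with 244 FPKM in HXP 3, 103 in HXP 2, 71.2 in HXP 1, 42.4 in HXP 5, 35.2 in HXP 4 and 9.92 in HXP 6. Against MI its log2 fold change was -0.92 (95% interval -2.07 to 0.23, limma adjusted p = 0.431).

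Mmp14 had the next lower difference from MI after Timp1. It stood at 19.3 FPKM in HXP 3, 13.4 in HXP 2, 12.3 in HXP 1, 4.38 in HXP 5, 2.67 in HXP 4 and 0.601 in HXP 6, so that 3 HXP libraries lay below every MI library and 1 of these below every control. Against MI the log2 fold change was -1.02 (95% interval -2.06 to 0.02, limma adjusted p = 0.365). Mmp23, at 1.37 to 21.5 FPKM with a median of 6.43, had a log2 fold change of -0.78 (95% interval -1.76 to 0.19), and Timp2, at 16.4 to 189 with a median of 54.3, had -0.62 (95% interval -1.53 to 0.30). The order HXP 3, 2, 1, 5, 4, 6 held for Mmp2, Mmp14, Mmp23, Timp1 and Timp2. Mmp3, at 0.701 to 18.8 FPKM with a median of 3.79, was led by HXP 2, and its log2 fold change was -0.52 (95% interval -1.69 to 0.65). For Timp3, at 32.2 to 128 FPKM with a median of 49.8, it was -0.24 (95% interval -0.85 to 0.37), for Timp4 0.09 (95% interval -0.50 to 0.68) and for Mmp9 -0.04 (95% interval -0.66 to 0.58). Values of 0 and of -1 on the log2 scale both lie within the intervals for Mmp2, Mmp3, Mmp14, Mmp23, Timp1 and Timp2.

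Mmp15 behaved apart from these genes. It stood at 16.2 FPKM in HXP 1, 15.0 in HXP 4, 11.9 in HXP 5, 10.9 in HXP 2, 9.85 in HXP 6 and 8.94 in HXP 3. Against MI, with a lowest library of 13.4 FPKM, 4 HXP libraries lay below every MI library, and against control 5 of 6 lay below the lowest control at 15.5 FPKM. Over all genes, 10.4% had at least 4 HXP libraries below every MI library and 3.19% at least 5 below every control. All 6 lay below every MI library in 0.306% of genes and in 0 members. The log2 fold change was -0.43 against MI (SE 0.15, 95% interval -0.73 to -0.12, limma adjusted p = 0.269) and -0.58 against control (SE 0.15, 95% interval -0.89 to -0.28, limma adjusted p = 0.0757). HXP 3 and HXP 6, the libraries with the highest and lowest Mmp2, were the lowest pair for Mmp15.

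The comparison of HXP with control places the treated hearts against the controls, and it shares its HXP libraries with the comparison above and its controls with that of MI. None of the 10 members passed, and over all genes 0.0948% were called higher and 0.219% lower, 0.314% together. At an unadjusted p below 0.05 limma had 7 of the 10 members, beside 33.1% of all genes. Timp1 had a log2 fold change of 2.51 (95% interval 1.09 to 3.94, limma adjusted p = 0.087), Mmp2 of 1.87 (95% interval 0.72 to 3.02, limma adjusted p = 0.0881) and Timp3 of 1.08 (95% interval 0.47 to 1.69, limma adjusted p = 0.087). For Mmp23 and Timp2 the values were 1.54 and 1.48, for Mmp14 1.34 and for Mmp3 1.12. Timp4 (-0.02, 95% interval -0.60 to 0.57) and Mmp9 (0.39, 95% interval -0.23 to 1.01) were also short of the threshold. Timp3 was the single member with all 6 HXP libraries above every control, a pattern held by 1.13% of all genes. For Mmp2 and Mmp23, HXP 6 lay within the control range, and for Timp1, Timp2 and Mmp14 it lay below every control. Group and run overlapped here too: the run of HXP 1, HXP 3, HXP 4 and HXP 6 held control 1 and no other control. With the run as a term in this comparison, 0 members and 0 of 13710 genes passed.

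The count of members called in HXP against control depended on the scaling and on single libraries, most of all on HXP 6. Without this library 8 of 10 members passed: Timp1 (3.15, limma adjusted p = 0.00662), Mmp2 (2.34), Timp2 (1.84), Mmp23 (1.89), Mmp14 (1.77), Timp3 (1.24) and Mmp3 (1.46) were higher and Mmp15 (-0.53) was lower, with limma adjusted p up to 0.0476. Over all genes the count was then 4236 in place of 43, or 30.9%. With quantile normalization, median-ratio scaling or scaling to non-mitochondrial reads 6 members passed, 5 higher and Mmp15 lower, beside 8.98%, 9.24% and 7.38% of all genes. Without HXP 5 alone 0 members passed, as in the fit with all libraries. Without HXP 1, Mmp15 alone passed (limma adjusted p = 0.0205). HXP 6 had the lowest summed fibroblast markers of all 18 libraries, at 251 FPKM against at least 415 in control, and the highest mitochondrial share, and the part of either in the result was not tested.

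Summed levels show how the make-up of both families shifted. The 4 TIMP genes summed to 45.2 to 68.3 FPKM in control, from 91.4 to 346 in MI and from 54.6 to 375 in HXP, and the 6 MMP genes to 31.5 to 44.9, 77.3 to 344 and 22.5 to 308 FPKM. Every MI library lay above every control in both sums. The ratio of summed TIMP to summed MMP level was 1.06 to 1.68 in control, from 1.00 to 1.71 in MI and from 1.19 to 2.42 in HXP, with wide overlap. HXP 6 had the highest ratio.

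Within the MMP sum, Mmp2 made up 30.8% to 42.1% of control libraries, 54.6% to 76.5% of MI libraries and 44.03% to 79.3% of HXP libraries. Mmp15 made up 40.9% to 51.9% in control, from 3.88% to 30.5% in MI and from 2.91% to 43.7% in HXP. Thus Mmp15 held the largest share of the MMP sum in 5 of 6 control libraries (in control 4 Mmp2 did), and Mmp2 in every MI and HXP library. Within the TIMP sum the share of Timp1 was 1.69% to 3.28% in control, from 10.8% to 21.96% in MI and from 0.967% to 19.7% in HXP, and that of Timp4 was 6.97% to 15.1%, 0.586% to 5.24% and 0.648% to 10.01%. The ratio of Timp2 to Mmp14, the pair that acts on the MMP2 precursor, was 8.66 to 17.7 in control, from 5.50 to 8.78 in MI and from 5.10 to 27.3 in HXP. The ratio of Timp2 to Mmp2 was 1.11 to 2.02 in control, from 0.646 to 1.13 in MI and from 0.777 to 1.65 in HXP. Shares and ratios are descriptions of RNA levels per length, with no test.

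**Figure D3:**
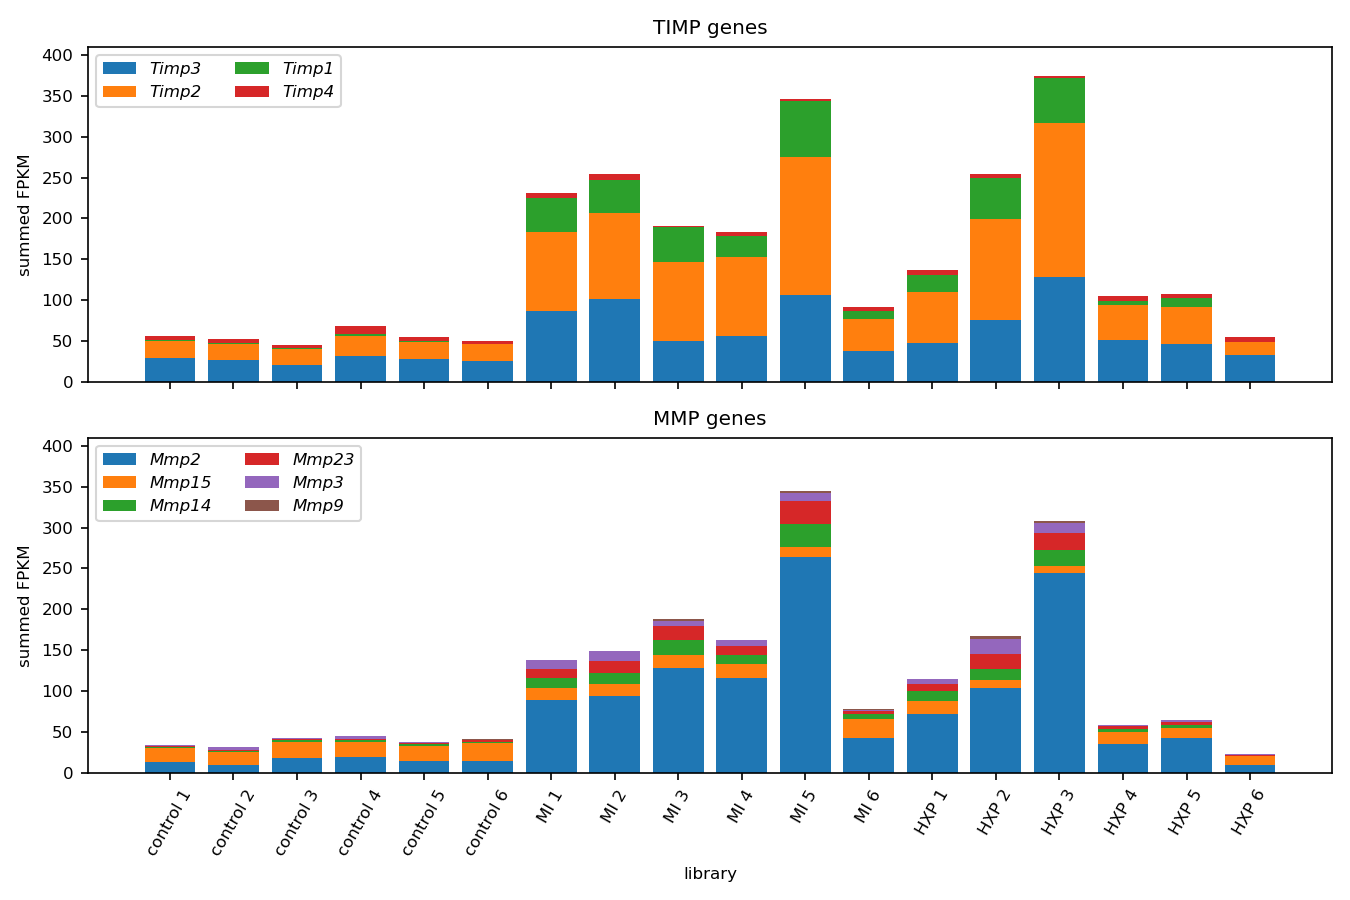
Summed FPKM per library of the 4 TIMP genes (top) and the 6 MMP genes (bottom), stacked by gene on a linear axis from 0. Mmp2 fills most of the MMP bars in MI 1 to MI 6 and in HXP 1 to HXP 5, Mmp15 and Mmp2 make up most of the control bars, and the HXP bars range from 54.6 to 375 for the TIMP genes.

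Genes whose levels ran most like those of single members were sought over the 18 libraries among 10754 genes. Their mean reached 1 FPKM, and genes with predicted or clone names for symbols were left out. For Timp1 these were Aebp1 (Pearson r 0.991 over log2 values), Fstl1 (0.990), Tgfb3 (0.989) and Tmem119 (0.988). For Mmp2 they were Cercam (0.993), Serpinf1 (0.992), the collagen gene Col5a2 (0.991) and the collagen-cutting cathepsin gene Ctsk (0.990). All points share the difference between the groups. The genes were picked over all 18 libraries, so r within a group is no separate check of the likeness. Within the 6 libraries of MI and of HXP, r for these 8 pairs ran from 0.931 to 0.998. Within the 6 controls it was lower for most: for Timp1 it was 0.792 with Aebp1, -0.12 with Fstl1, 0.505 with Tgfb3 and 0.112 with Tmem119, and for Mmp2 it was 0.741 with Cercam, 0.531 with Serpinf1, 0.951 with Col5a2 and 0.810 with Ctsk. For Timp4 the closest were Hand2os1 (0.782), Tecrl (0.760), Cdc37l1 (0.760) and Sult1a1 (0.752), whose group means differed little: Tecrl stood at 22.2 FPKM in control, 18.7 in MI and 20.1 in HXP. Within HXP, r of Timp4 with Sult1a1 was -0.15, and with the other 3 it ran from 0.793 to 0.959. These correlations are descriptions.

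Of 17 further MMP genes 13 were matched in the files and 4 passed the filter, of which 3 rose in MI and 0 passed in HXP against MI, where Mmp28 had -0.56 (95% interval -0.98 to -0.15, limma adjusted p = 0.287) and Mmp11 -0.41 (95% interval -0.83 to 0.01, limma adjusted p = 0.367). Mmp19, a secreted protease, rose from 0.672 ± 0.212 to 3.91 ± 2.70 FPKM (SD over 6 libraries per group, by a log2 fold change of 1.41, limma adjusted p = 0.0158), with all MI libraries above all controls. Mmp28, which encodes epilysin, rose from 0.750 ± 0.114 to 1.86 ± 0.643 FPKM (log2 fold change 0.67, limma adjusted p = 0.0184), and Mmp11, which encodes stromelysin 3, from 2.04 ± 0.282 to 3.63 ± 0.824 FPKM (0.59, limma adjusted p = 0.0277). Mmp12, the macrophage elastase gene, ran from 0.0324 to 0.263 FPKM in control, from 0.0847 to 4.89 in MI and from 0.045 to 13.7 in HXP, where HXP 2 was highest. Its log2 fold change in MI of 0.83 did not pass (limma adjusted p = 0.206).

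Proteases and regulators that act with the family were counted from lists. Of 8 tested ADAM proteases that TIMPs inhibit, 7 rose in MI and 0 fell, with a median log2 fold change of 0.71. Over all genes 40.1% were called higher and 3.21% lower in this comparison, with a median of 0.27, against which this and the next lists stand. Adam8 rose by 0.94 (limma adjusted p = 0.0184) and Adam12 by 0.85 (limma adjusted p = 0.0147), while Adam33 had 0.43 (limma adjusted p = 0.0616). Of 14 tested genes of MMP activation and clearance 11 rose and 0 fell, with a median of 1.11. Thrombospondin genes led them: Thbs1 rose from 1.34 ± 0.197 to 59.6 ± 46.1 FPKM (SD over 6 libraries per group, by a log2 fold change of 4.25, limma adjusted p = 0.0127) and Thbs2 by 2.24 (limma adjusted p = 0.0139). Reck, which encodes a membrane-anchored MMP inhibitor, rose by 1.41 (limma adjusted p = 0.0143), and Lrp1, an endocytic receptor for MMP and TIMP complexes, by 2.10 (limma adjusted p = 0.0146). Bsg, which encodes the MMP inducer basigin, had a log2 fold change of -0.22 (limma adjusted p = 0.112). Furin, the protease that activates the membrane-type precursors, stood at 7.41 ± 0.689 FPKM in control, 9.87 ± 1.22 in MI and 6.14 ± 2.64 in HXP, and neither its difference of 0.37 in MI (limma adjusted p = 0.153) nor that of -0.70 in HXP against MI (limma adjusted p = 0.251) passed.

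All 12 tested matrix genes whose proteins MMPs cut rose in MI, with a median log2 fold change of 2.79. The elastin gene Eln rose from 5.38 ± 2.73 to 132.8 ± 76.4 FPKM and the fibronectin gene Fn1 from 3.66 ± 0.770 to 95.8 ± 68.0 (SD, n = 6 each), by log2 fold changes of 4.26 and 4.06 (limma adjusted p of 0.0136 and 0.0127). In HXP against MI, 0 of these 12 passed and the median was -1.21. The basement membrane collagen genes Col4a1 (-1.23, limma adjusted p = 0.256) and Col4a2 (-1.16, limma adjusted p = 0.281) had the smallest p. No gene of the lists named in these paragraphs passed in HXP against MI or in HXP against control.

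**Figure D4:**
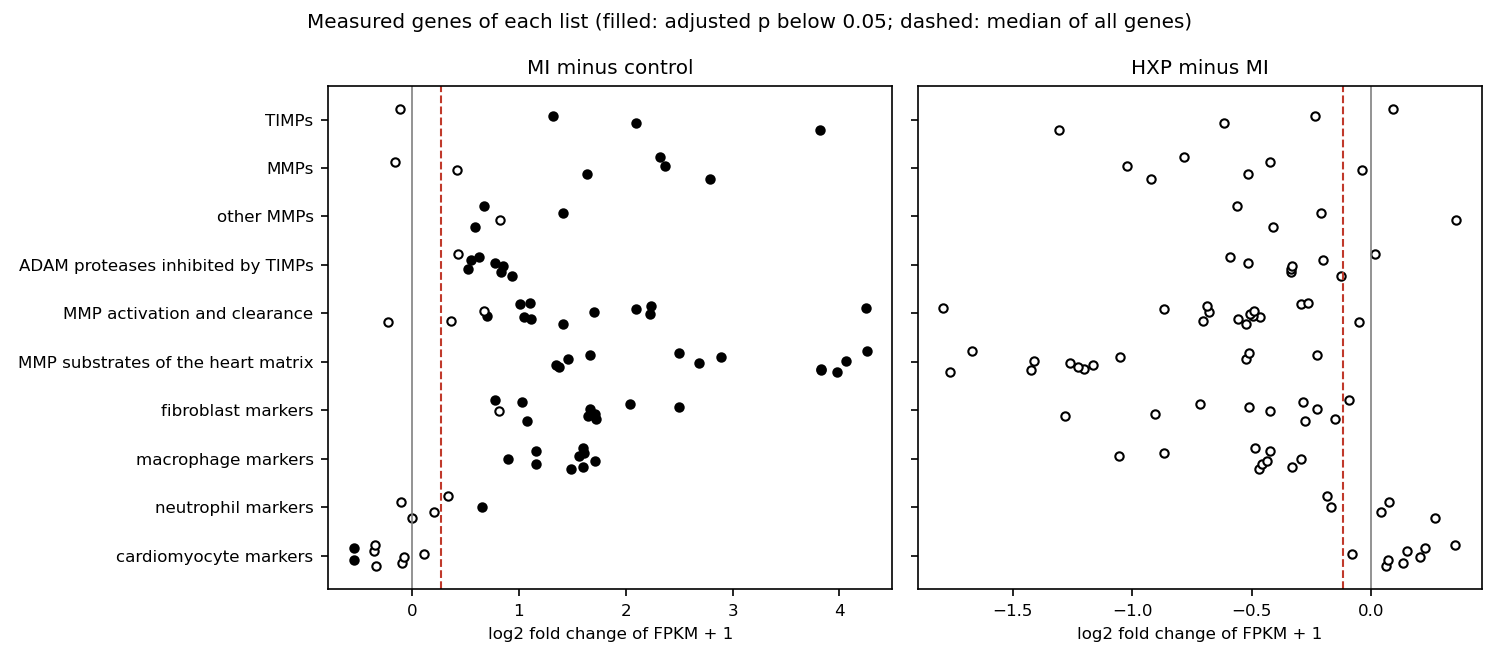
Differences of log2(FPKM + 1) for every tested gene of each list in MI minus control (left) and HXP minus MI (right), filled where the limma adjusted p lay below 0.05, with a dashed line at the median of all genes (0.27 and -0.12). On the left all 12 substrate genes and 7 of the 10 members are filled, and on the right no point is filled.

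Marker lists of cell types did not all move with the members. Of 10 fibroblast markers 9 rose in MI (median 1.66), and their summed level was 415 to 538 FPKM in control, from 637 to 1566 in MI and from 251 to 2569 in HXP. Across the HXP libraries that sum stood in the order HXP 3, 2, 1, 5, 4, 6, the order found for Mmp2, Mmp14, Mmp23, Timp1 and Timp2, and across MI it was highest in MI 5 and lowest in MI 6. Of 9 macrophage markers 9 rose (median 1.57), with sums of 158 to 220 FPKM in control, from 238 to 1074 in MI and from 104 to 988 in HXP. Of 8 cardiomyocyte markers 0 rose and 2 fell, Tnni3 (-0.54, limma adjusted p = 0.0324) and Pln (-0.54, limma adjusted p = 0.0254), and their sum was 6584 to 7851 FPKM in control, from 4484 to 7539 in MI and from 4243 to 8806 in HXP. Mesothelial markers rose in 7 of 7 members (median 1.51), with Msln, which encodes mesothelin, at 2.61 (limma adjusted p = 0.0139), and their sum was 0.373 to 3.08 FPKM in control, from 8.57 to 41.04 in MI and from 0.53 to 106 in HXP. Of 8 smooth muscle and pericyte markers 4 rose and 0 fell (median 0.88), among them Tagln (1.53, limma adjusted p = 0.0232). Of 7 endothelial markers 1 rose, Pecam1 (0.44, limma adjusted p = 0.034), with a median of 0.35. Of 5 tested neutrophil markers 1 rose, Csf3r (0.66, limma adjusted p = 0.0324), with a median of 0.21 beside 0.27 over all genes. Among lung epithelial markers 1 of 6 rose, Napsa, and among skeletal muscle markers 2 of 7 rose, Mylpf and Tnnt3, and 1 fell, Ckm. Ckm stood at a mean of 627 FPKM in control hearts, against 0.466 for Mylpf, so it does not mark skeletal muscle alone in this tissue. No gene of these marker lists passed in HXP against MI or in HXP against control. The part of these cells in the results was not tested.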

How the data were processed

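The authors deposited 1 file per library with values for 34150 Ensembl genes. These deposited values were taken to be FPKM. The headers give no unit, and it was read from the numbers: multiplied by exon length, 97.9% to 98.3% of the low values checked in a library lay within 0.1 of a whole read. GRCm38 and limma appear in the tools and builds listed per the submitters' processing notes, with no role or version. For the aligner, the counter, the annotation and the use of strand, the sources used here have no statement.

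GENCODE M21 gave symbols and exon lengths for 34097 IDs and none for 53. Values were analysed as log2(FPKM + 1) in 1 model of 3 groups with limma (version 3.58.1, R version 4.3.3, mean-variance trend, no robust prior), two-sided, with Benjamini-Hochberg adjustment over 13710 genes and calls below 0.05. The fit was tested on simulated data. MI 1 and MI 2 were the most alike pair but differed by more than sampling noise and were kept as separate samples. Runs are stretches of the library numbers in the file headers. Voom was run on recovered reads as an alternative. Python 3.11.15 and matplotlib 3.10.9 drew the figures.

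The members and lists were chosen with earlier results of these data known. Named genes are the members, every further MMP gene that passed the filter, in each list up to 2 called genes with the highest and 2 with the lowest fold change in MI and the 2 smallest p of each sign in HXP against MI, and the 4 genes most like Timp1, Mmp2 and Timp4. Not every gene this rule picks is given. Reck, Lrp1, Bsg, Ly6g, Sftpc and Myh1, the MMP genes below the filter and the Syn genes were chosen after their values were seen.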

Additional observations from a re-analysis of the deposited data

Results flagged for a closer look

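Among 30 combinations of a member and a group, 2 held a library far from the others of its group. Chance flags about 1 in 20 such groups. Gaps and ranges here were taken on the log2(FPKM + 1) scale. For Mmp3 in MI, MI 6 stood at 1.15 FPKM and the next library at 5.86, a gap of 0.636 of the range of the group on that scale. For Timp4 in control, control 4 stood at 10.3 FPKM and the next library at 5.14, a gap of 0.656 of the range on that scale.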

How the results depend on the processing

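The count of members called in MI against control, 7 of 10, was 8 with median-ratio scaling, 7 higher and Mmp15 lower. It was 6 with quantile normalization, without the filter or with the run as covariate. The shares of all genes were 32.6%, 30.5%, 12.1% and 30.8% in that order. The count was 6 to 7 with any 1 library left out, 0 without MI 4 and MI 5 (0% of all genes) and 2 in the largest run alone (0.576%). These fits also held fewer samples, and the cause of the lower counts was not tested. In HXP against MI it was 0 under every setting. In HXP against control it was 0 in the main result, beside 0.314% of all genes. It was 6 with quantile normalization, 6 with median-ratio scaling and 6 with scaling to non-mitochondrial reads, beside 8.98%, 9.24% and 7.38%. Without HXP 5 and HXP 6 it was 8, and also 8 without MI 5 and HXP 6, beside 43.5% and 33.3% of all genes. With any 1 library left out it was 0 to 8, and the 8 came without HXP 6, beside 30.9%. Leaving out MI 5 and HXP 6 together was chosen after seeing the data. With the replicate number as a block, members called were 7, 0 and 0, as without the block. Deviations of same-numbered libraries correlated at -0.00259 to 0.199 between MI and control, -0.313 to 0.635 between HXP and MI and -0.144 to 0.0879 between HXP and control, so the numbers were not taken to pair the samples.

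Signs turned for members near 0. Timp4 in MI against control was -0.25 to 0.085 with any 1 library left out, 0.039 without MI 4 and MI 5 and 0.060 without MI 5 and HXP 6. Timp4 in HXP against MI was -0.075 to 0.24 with 1 library left out, -0.054 without MI 4 and MI 5, -0.088 in the largest run and -0.11 without MI 5 and HXP 6, and in HXP against control -0.093 to 0.18 with 1 left out. Mmp9 in HXP against MI was -0.27 to 0.15 with 1 library left out, 0.085 with quantile normalization, 0.20 with the run as covariate and also 0.20 without MI 5 and HXP 6, 0.28 without HXP 5 and HXP 6 and 0.34 in the largest run. Mmp3 in HXP against MI was 0.13 without HXP 5 and HXP 6 and 0.069 in the largest run, and Timp3 was 0.047 without HXP 5 and HXP 6 and 0.053 without MI 5 and HXP 6. The 7 members that rose in MI had positive fold changes under all 34 alternatives.

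Over all genes, MI against control split into 5494 higher and 440 lower, and into 1810 and 2371 after quantile normalization, 2395 and 2068 after median-ratio scaling and 3095 and 1283 after scaling to non-mitochondrial reads. Its count of 5934 of 13710 was 2656 without MI 5, 3892 without control 2 and 79 in the largest run, and 2292 of 5633 when only genes averaging 5 FPKM or more were tested (40.7% against 43.3%). In HXP against control the count of 43 ranged from 0 (unfiltered, with 6332 at an unadjusted p below 0.05) to 5967 without HXP 5 and HXP 6. Depth limits Mmp9 most, with as few as 24 reads in a library.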

Other observations

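MMP genes below the filter were not tested. Mmp27 stood at a mean of 0.028 FPKM in control, 0.108 in MI and 0.302 in HXP, where all 6 libraries lay above every control and 3 above every MI library. These levels are near 0: controls ran from 0 to 0.0462 FPKM, and HXP 6 stood at 0.053. Of the tested genes, 1.13% had every HXP library above every control. Mmp16, a membrane-type protease gene, stood at 0.0499, 0.376 and 0.263 FPKM, with all 6 MI libraries above every control, as in 27.9% of the tested genes. Mmp17 stood at 0.292, 0.614 and 0.514 FPKM. The collagenase gene Mmp13 stood at 0.434, 0.402 and 0.276 FPKM, and the neutrophil collagenase gene Mmp8 at 0.0856, 0.0924 and 0.0927 FPKM, with overlap of all groups. Mmp10 was listed at 0 in all 6 controls, and its highest level, 0.225 FPKM, was in MI 5.

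Lcn2, which encodes a partner protein of MMP9, stood at 12.2 FPKM in MI 5, the library with lung markers, and at 0.867 to 1.39 in the other MI libraries.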
